A study of Homo sapiens with 5 samples.

Results

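The Notch receptors NOTCH1, NOTCH2 and NOTCH3, the ligands JAG1 and JAG2, and the target genes HES1, HEY1, HEY2, HEYL and NRARP were followed through 5 RNA-seq libraries of TOV21G cells. TOV21G is a human cell line derived from an ovarian clear cell carcinoma, and it carries mutations of ARID1A, a subunit of the SWI/SNF chromatin remodelling complex. All 10 genes were found by symbol among the 30476 Ensembl gene identifiers of the count table. The set was chosen with the high level of HEY2 in 1 resistant clone already known, so the level of HEY2 and every difference between the clones for these 10 genes are given as a description, with no test.

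The study compared parental cells with EZH2 inhibitor-resistant (EIR) clones. EZH2 is the enzyme that places the repressive methyl mark on lysine 27 of histone H3, and GSK126 inhibits it. The EIR clones were picked from parental cells grown in GSK126 that was raised stepwise from 5 to 20 uM. The groups were untreated parental cells (1 library), untreated EIR clone 3 (1 library), GSK126-treated EIR clone 3 (1 library), untreated EIR clone 4 (1 library) and GSK126-treated EIR clone 4 (1 library). All groups share the ARID1A mutation of the line. The dose and time of GSK126 in the treated cultures were not used here, and each EIR line is a single clone.

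Notch is a receptor that is activated by a ligand on a neighbouring cell. JAG and DLL ligands pull on the receptor, which is then cut by ADAM proteases and by gamma-secretase. The freed intracellular domain enters the nucleus, joins the DNA-binding protein RBPJ and a MAML coactivator, and switches on HES and HEY genes, which encode transcriptional repressors, and NRARP, which encodes a feedback inhibitor of the pathway.

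Total counts ranged from 25479238 to 30764963 per library. PAX8 (3031 to 4491 counts), KRT8 (4331 to 8176) and KRT18 (11896 to 18015) marked all libraries as epithelial, whereas EPCAM, an epithelial adhesion molecule, had 398 to 498 counts in parental and clone 3 cells and 0 and 1 in clone 4. NAPSA had 2 to 53 counts. HEY2 and the Notch ligands are also used by endothelial and mural cells. The endothelial markers in the table (3 of 4 listed) summed to 9 to 20 counts, with TEK at 0 in 3 libraries, and the blood marker PTPRC had 2 to 15. Of the 3 markers of smooth muscle and pericytes, RGS5 had 3001 to 8098 counts with the highest values in clone 4, MYH11 had 1 to 17 and CSPG4 0 to 27. In bulk RNA, fewer cells with a transcript and less of it per cell cannot be told apart.

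The promoters of HES1 and HEY2 are shown because these are the members with the highest target level in parental cells and the largest difference between the clones. RBPJ binds DNA at sites with the core TGGGAA. In the RefSeq promoter table (assembly GRCh38.p14, 250 bases before to 50 after a gene start), 9 of the 10 members had an entry, HEY1 being the exception. TGGGAA was found on either strand at 2 positions in each of HES1, HEY2 and HEYL, and at 0 positions in NOTCH1, NOTCH2, NOTCH3, JAG1, JAG2 and NRARP. Of all 35116 promoters in the table, 24% held TGGGAA and 3.8% held it at 2 or more positions. The longer form GTGGGAA, which contains TGGGAA, was present once in HES1 and HEYL and at 2 positions in HEY2. Of all promoters, 6.25% held it and 0.248% held it at 2 or more positions. Such a match is a description of letters, not evidence of binding. The sequences below run from 250 bases before the start through its first 3 bases, 5′ to 3′ on the gene's own strand, with TGGGAA, or TTCCCA where it lies on the other strand, in capitals. In GRCh37, HES1 lies at chr3:193853687-193853939 (plus strand) and HEY2 at chr6:126070528-126070780 (plus strand), each an exact single match. The HEY2 promoter lies inside the longer GENCODE span of that gene.
HES1: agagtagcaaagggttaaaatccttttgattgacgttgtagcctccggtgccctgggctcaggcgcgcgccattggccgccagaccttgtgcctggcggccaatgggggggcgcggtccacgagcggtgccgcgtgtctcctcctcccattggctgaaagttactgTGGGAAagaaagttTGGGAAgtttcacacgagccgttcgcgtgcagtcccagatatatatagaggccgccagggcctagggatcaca
HEY2: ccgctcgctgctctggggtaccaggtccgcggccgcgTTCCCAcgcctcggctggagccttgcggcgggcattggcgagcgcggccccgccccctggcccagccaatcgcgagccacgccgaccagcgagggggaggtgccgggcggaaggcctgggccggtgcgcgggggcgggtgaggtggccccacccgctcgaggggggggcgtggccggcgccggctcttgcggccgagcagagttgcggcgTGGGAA

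The levels of all 10 genes are described on the scale of normalized counts, the deposited counts divided by a size factor per library. The plot of normalized counts by library shows the whole range of the set, from 1.01 for HEYL to 6053 for NOTCH2. Among the 9 members that averaged 10 or more normalized counts, the 4 EIR libraries lay on the same side of the parental library in 8, which were NOTCH2, HEY1 and HEY2 above it and NOTCH1, NOTCH3, JAG2, HES1 and NRARP below it. Of 16248 genes at that level, 69.9% did so, and HEY2 is a member chosen on its level.

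**Figure D1:**
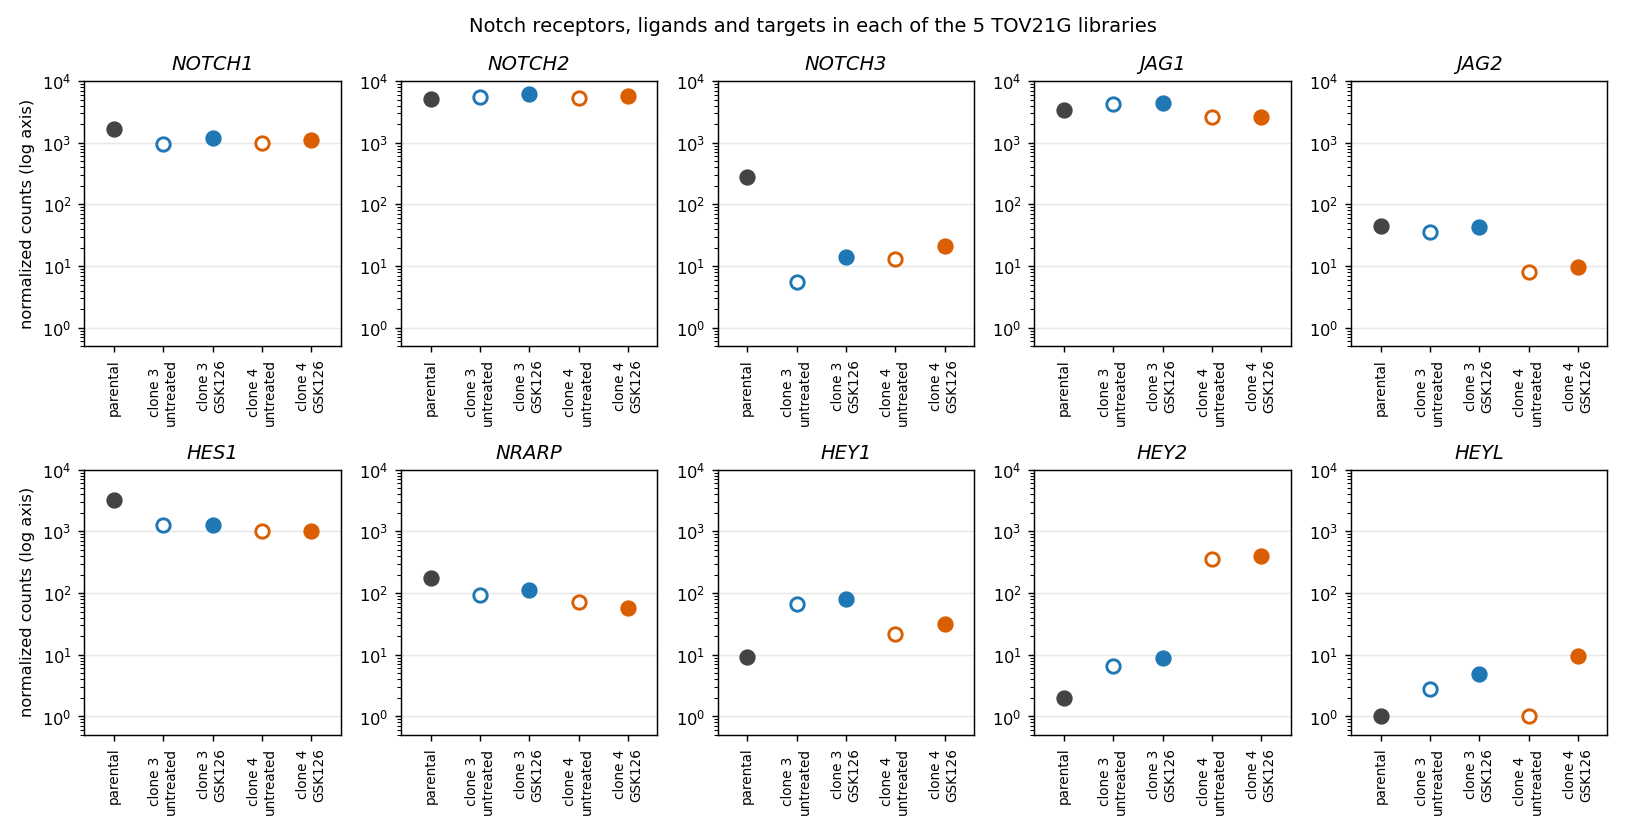
Normalized counts (log axis) of each of the 10 genes in the parental library (grey), EIR clone 3 (blue) and EIR clone 4 (orange), with open circles for untreated and filled circles for GSK126-treated EIR cells, 1 point per library. NOTCH3 fell from 282 in parental cells to between 5.55 and 21.2, HES1 from 3275 to between 999 and 1281, and HEY2 stood at 363 and 401 in clone 4 against 2.01 to 8.89 elsewhere.

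The first comparison asked how the pathway differed between resistant and parental cells. NOTCH3, HES1 and NOTCH1 were lower and HEY1 was higher across the 4 EIR libraries, with DESeq2 adjusted p under 0.05. These were 4 of the 9 members other than HEY2 (HEYL had no adjusted p), where 25.5% of 16288 genes tested were called. Within clones, 4 members were called in clone 3 against parental (NOTCH1, NOTCH3, HES1, HEY1) and 5 in clone 4 (NOTCH1, NOTCH3, JAG2, HES1, NRARP, all lower), where 29.2% and 32.9% of genes were called. These 3 contrasts share 1 parental library, so they do not repeat each other independently. Only the EIR groups had more than 1 library, so they alone set the spread, and a clone's untreated and treated libraries come from the same clone. In the pooled contrast that spread holds the differences between clones and treatments, in the contrasts of single clones it holds those between treated and untreated cells, and the parental culture was measured once.

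NOTCH3 (ENSG00000074181, chr19:15269849-15311806, minus strand, GRCh37) encodes a receptor best known from vascular smooth muscle and amplified in some ovarian cancers. It had 282 normalized counts in parental cells, 5.55 and 13.8 in untreated and treated clone 3, and 13.2 and 21.2 in untreated and treated clone 4. Every EIR library was far below the parental one, and the EIR mean of 13.4 ± 6.38 (SD, n = 4) was 4.77% of it, 21.0-fold lower. The log2 fold change was -4.40 (SE 0.70, DESeq2 adjusted p = 1.241e-08) for the 4 EIR libraries. It was -4.87 (SE 0.72) in clone 3 and -4.04 (SE 0.69) in clone 4. This call was made under each of the 11 settings run for EIR against parental, with adjusted p up to 0.0162, and under each of the 10 run for each clone. The raw counts fell from 280 in the parental library to between 6 and 20 in the EIR libraries.

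NOTCH1 (ENSG00000148400, chr9:139388885-139440500, minus strand), a receptor used widely in epithelia and T cells, had 1675 normalized counts in parental cells. In clone 3 it had 942 untreated and 1180 treated, and in clone 4 988 and 1092. The 4 EIR libraries lay close together and below the parental library, at 1050 ± 107 (SD, n = 4) or 62.7% of it. The log2 fold change was -0.67 (SE 0.21, DESeq2 adjusted p = 0.0102) for the 4 EIR libraries, -0.66 (adjusted p = 0.0141) in clone 3 and -0.69 (adjusted p = 0.0090) in clone 4. The pooled call was lost in edgeR (adjusted p = 0.0518), without untreated clone 3 (0.0593), without untreated clone 4 (0.0675), and with the libraries of each clone summed (0.1350). In clone 3 it was lost without untreated (adjusted p = 0.3637) or treated clone 3 (0.0733), and in clone 4 without untreated (0.0624) or treated clone 3 (0.0601). With offsets for GC content the change was -0.19 (adjusted p = 0.5723) for the 4 EIR libraries, -0.23 (0.4861) in clone 3 and -0.15 (0.6517) in clone 4.

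GC content moved with the libraries. Over 11377 genes, the median log2 ratio to the parental library ran from 0.20 to 0.33 in the EIR libraries for genes under 45% GC, and from -0.53 to -0.38 for genes above 58%. NOTCH1 (63.5% GC), JAG2 (64.1%), NOTCH3 (60.1%) and NRARP (59.2%) belong to the GC-rich group, and HES1 (51.0%), NOTCH2 (50.2%), JAG1 (50.9%), HEY1 (46.5%) and HEY2 (46.1%) do not. With the GC offsets NOTCH3 was still called lower (-3.99, DESeq2 adjusted p = 1.993e-06), and so was HES1 (-1.36, adjusted p = 1.921e-07).

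NOTCH2 (ENSG00000134250, chr1:120454176-120643366, minus strand) was the most abundant receptor. It had 5086 normalized counts in parental cells, 5534 and 6053 in clone 3, and 5229 and 5793 in clone 4. All EIR values were slightly above the parental one, but the change of 0.15 on the log2 scale (95% interval -0.17 to 0.47, DESeq2 adjusted p = 0.5435) was not called. The human genome carries near-identical partial copies of NOTCH2, so its count is uncertain where reads could be shared.

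Levels of the receptors were compared per kilobase of the canonical transcript. NOTCH2 made up 68.2% of the summed level of the 3 receptors in parental cells and 80.9% to 83.0% in EIR cells. NOTCH1 had 26.8% in parental and 16.9% to 18.8% in EIR cells, and NOTCH3 4.98% and 0.11% to 0.391%. The summed receptor level was 653 normalized counts per kilobase in parental cells and 562 to 655 in EIR cells, so the parental value lay within the EIR range. The stacked plot of levels per kilobase shows that the receptor total stayed in that range while its NOTCH3 part became too small to see.

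**Figure D2:**
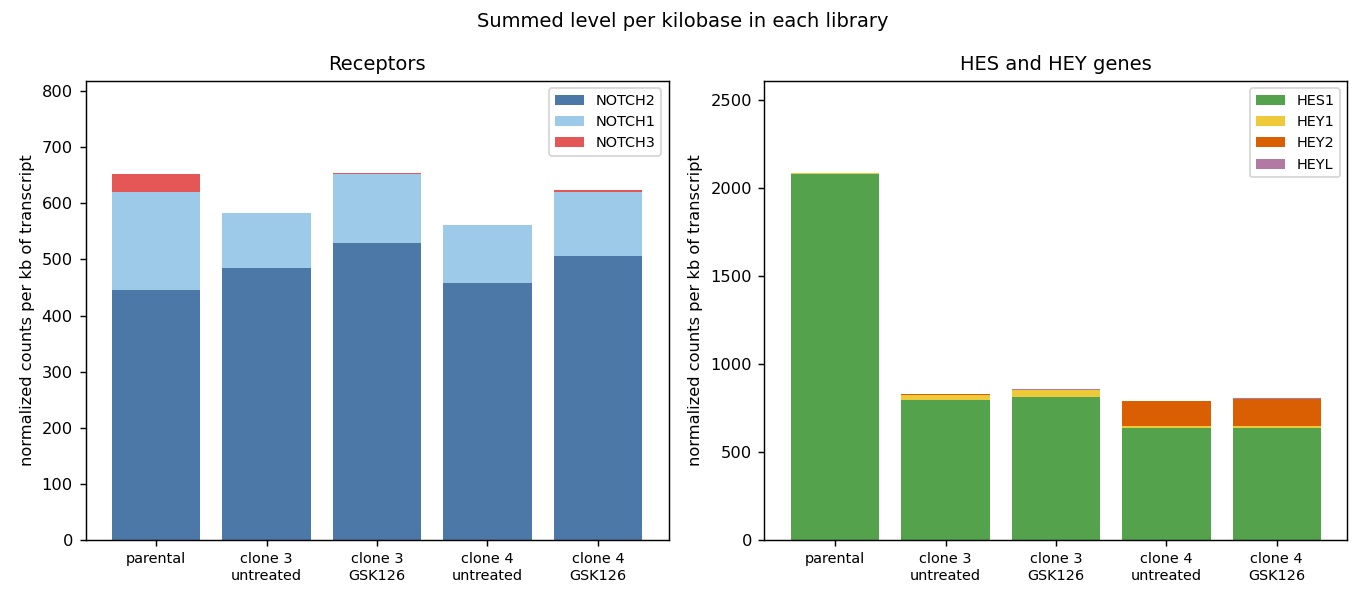
Normalized counts per kilobase of canonical transcript in each of the 5 libraries, stacked by gene, for the receptors (left) and for the HES and HEY genes (right). The total of HES1, HEY1, HEY2 and HEYL was 2085 in the parental library and 786 to 855 in the EIR libraries. HEY2 was visible only in clone 4, at 17.6% and 19.0% of that total.

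Among the ligands, JAG1 (ENSG00000101384, chr20:10618332-10654647, minus strand) was abundant and differed in direction between the clones. It had 3424 normalized counts in parental cells, 4273 and 4426 in clone 3, and 2594 and 2650 in clone 4. Both clone 3 libraries were above and both clone 4 libraries below the parental library, and the EIR mean of 3486 ± 999.6 (SD, n = 4) was close to the parental value. The log2 fold change was 0.03 (SE 0.39, DESeq2 adjusted p = 0.9722) for the 4 EIR libraries. It was 0.34 (SE 0.17, adjusted p = 0.1114) in clone 3 and -0.39 (SE 0.17, adjusted p = 0.0635) in clone 4. The clone 3 value passed the threshold with total count scaling (adjusted p = 0.0493) and with GC offsets (0.0043), and the clone 4 value in edgeR (0.0487).

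JAG2 (ENSG00000184916, chr14:105607319-105635161, minus strand) was low, with 45.3 normalized counts in parental cells, 35.2 and 42.5 in clone 3, and 8.14 and 9.52 in clone 4. Clone 3 was near the parental level and clone 4 stood at 19.5% of it. The log2 fold change was -0.22 (SE 0.90, DESeq2 adjusted p = 0.9033) in clone 3 and -2.36 (SE 0.96, adjusted p = 0.0427) in clone 4. The clone 4 call rested on 8 and 9 raw counts and was lost with total count scaling (adjusted p = 0.0593), with GC offsets (0.1614), and without any 1 of the 4 EIR libraries (0.1429 to 0.1882). Per kilobase, JAG1 exceeded JAG2 by a ratio of 73.4 in parental cells, 118 and 101 in clone 3, and 310 and 271 in clone 4.

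Among the targets, HES1 (ENSG00000114315, chr3:193853937-193856521, plus strand), a basic helix-loop-helix repressor and the most widely used Notch target, had 3275 normalized counts in parental cells. It had 1249 and 1281 in clone 3 and 1004 and 999 in clone 4. All EIR libraries were far below the parental library, and within each clone the untreated and treated values were almost equal. The EIR mean of 1133 ± 153 (SD, n = 4) was 34.6% of the parental value, 2.89-fold lower. On the log2 scale the change was -1.53 (SE 0.24), with a DESeq2 adjusted p of 1.310e-08. Each clone was called (-1.37, adjusted p = 1.498e-11 in clone 3, and -1.71, adjusted p = 1.462e-17 in clone 4). HES1 was called under each setting run, with adjusted p up to 0.0146 for the 4 EIR libraries.

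NRARP (ENSG00000198435, chr9:140194083-140196723, minus strand), the feedback inhibitor, had 173 normalized counts in parental cells, 92.6 and 113 in clone 3, and 71.2 and 57.1 in clone 4. All 4 EIR values were lower than the parental one, at 83.4 ± 24.4 (SD, n = 4) or 48.1% of it. Over the 4 EIR libraries the change of -1.05 on the log2 scale (SE 0.50, DESeq2 adjusted p = 0.1098) was not called, nor was -0.76 (SE 0.50, adjusted p = 0.2842) in clone 3. In clone 4 it was -1.43 (SE 0.51, adjusted p = 0.0190), a call lost with GC offsets (adjusted p = 0.1406) and without any 1 of the 4 EIR libraries (0.0613 to 0.1528).

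HEY1 (ENSG00000164683, chr8:80674606-80680092, minus strand), a repressor of the hairy-related family, went the other way. It had 9.06 normalized counts in parental cells, 67.6 and 81.0 in clone 3, and 21.4 and 31.7 in clone 4. Every EIR library exceeded the parental one, which rested on 9 raw counts, and clone 3 was the higher of the clones. The log2 fold change was 2.48 (SE 0.99, DESeq2 adjusted p = 0.0498) for the 4 EIR libraries, 3.03 (SE 0.87, adjusted p = 0.0030) in clone 3 and 1.55 (SE 0.89, adjusted p = 0.1792) in clone 4. The pooled call lay at the threshold and was made in 3 of the 11 settings, and not in edgeR (adjusted p = 0.1562), with the libraries of each clone summed (0.2090), with TMM factors (0.0511), with GC offsets (0.0581), with the low count filter (0.0601), without untreated clone 3 (0.1509), without treated clone 3 (0.1708) or without treated clone 4 (0.0580). The clone 3 call was lost without untreated clone 3 (0.0777) and without treated clone 3 (0.1533). The test of clone 4 missing the threshold does not show that HEY1 differed between the clones.

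HEYL (ENSG00000163909, chr1:40089107-40105315, minus strand) was near the limit of detection. Its raw counts were 1 in parental cells, 3 and 5 in clone 3, and 1 and 9 in clone 4. At 1 count in parental cells no fold is given, and DESeq2 returned no adjusted p for any contrast with parental cells. The plot of fold changes against the parental library therefore holds the other 8 members tested.

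**Figure D3:**
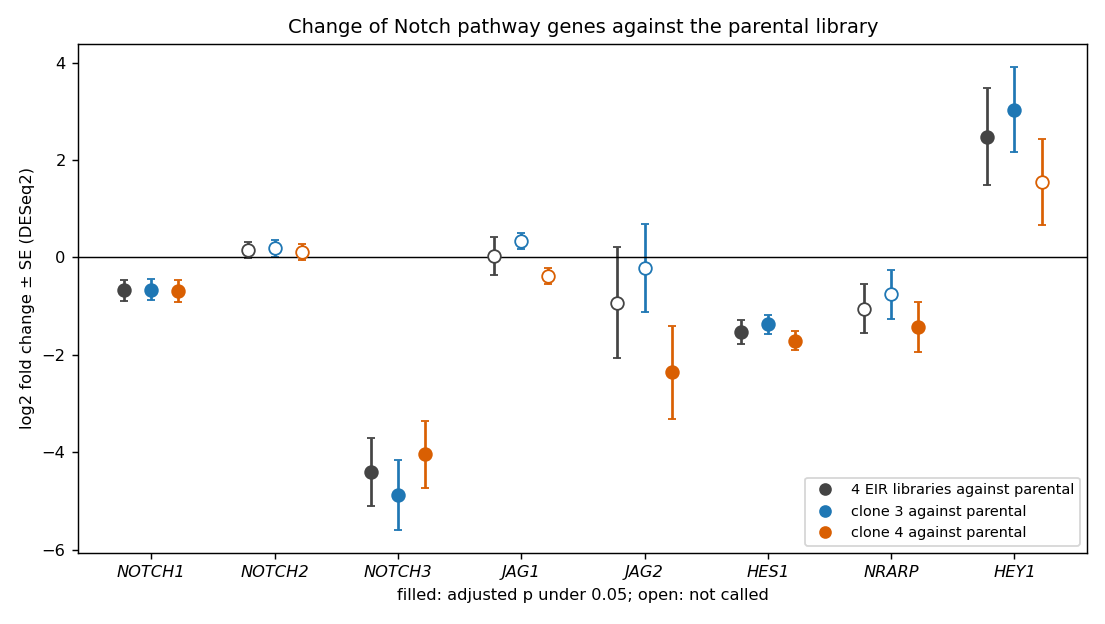
DESeq2 log2 fold change (y axis, error bars are SE) of each member other than HEY2 and HEYL for the 4 EIR libraries (grey), clone 3 (blue) and clone 4 (orange) against the parental library, with filled points for adjusted p under 0.05 and open points for no call. NOTCH3 and HES1 were called lower in all 3 contrasts, JAG1 lay on opposite sides of 0 in the clones at 0.34 and -0.39, and HEY1 was higher at 3.03 and 1.55.

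HEY2 (ENSG00000135547, chr6:126068810-126082415, plus strand), a repressor of the same family as HEY1 that is known from heart and artery development, was the gene on which the set was chosen. It had 2 raw counts in parental cells, 7 and 9 in untreated and treated clone 3, and 357 and 379 in untreated and treated clone 4. In normalized counts these were 2.01, 6.48, 8.89, 363 and 401. Both clone 4 libraries stood apart from the other 3. Clone 4 exceeded clone 3 by a ratio of 49.9 (95% counting interval 30.5 to 87.8), which was 56.0 (26.9 to 140) between untreated and 45.1 (23.5 to 99.4) between treated libraries. Against the 2 parental counts the ratio was 189 (52.3 to 1568) in clone 4 and 3.80 (0.893 to 34.0) in clone 3. These intervals cover counting error only, and no test is attached to them.

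The other members differed less between the clones. With a pseudocount of 0.5, the log2 difference of mean normalized counts, clone 4 minus clone 3, was 5.55 for HEY2, 0.80 for NOTCH3, 0.40 for HEYL, -0.03 for NOTCH1, -0.07 for NOTCH2, -0.34 for HES1, -0.67 for NRARP, -0.73 for JAG1, -1.47 for HEY1 and -2.08 for JAG2. HEY2 and HEY1 thus stood in opposite order in the clones. The NOTCH3 and HEYL differences rested on at most 20 and 9 raw counts in a library.

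Per kilobase, HES1 was the leading gene of the 4 HES and HEY genes among the members in every library. HES6 and other HES genes of the wider list are not part of this sum. Its share of their summed level was 99.8% in parental cells, 95.9% and 95.1% in clone 3, and 81.1% and 78.9% in clone 4. HEY2 made up 0.0368%, then 0.298% and 0.396%, then 17.6% and 19.0%. HEY1 made up 0.198%, then 3.72% and 4.32%, then 1.24% and 1.80%. The summed level was 2085 normalized counts per kilobase in parental cells, 827 and 855 in clone 3, and 786 and 804 in clone 4. The sum was therefore lower in each EIR library, and HEY1 in clone 3 and HEY2 in clone 4 were the larger parts after HES1.

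The genes around HEY2 on chromosome 6 were examined for the same difference, as a description. Of the 13 other genes of the table that start within 1 Mb of the HEY2 start, 8 had at least 10 counts in a library. Their log2 difference, clone 4 minus clone 3, ran from -0.87 for TPD52L1 to 2.32 for RNF217, with a median of 0.41. HDDC2 was at 1.10, the adjacent coding gene NCOA7 at 0.73, TRMT11 at 0.09, HINT3 at -0.03 and CENPW at -0.16. RNF217 starts at -785 kb and NCOA7 at 33.5 kb from the HEY2 start. RNF217 had 183 normalized counts in parental cells, 88.0 and 72.1 in clone 3, and 379 and 422 in clone 4. The antisense gene HEY2-AS1, which overlaps the first 1.53 kb of the GENCODE span of HEY2, had 4 to 20 raw counts (difference 1.63). Whether the counting used strand is not stated, so reads in that shared stretch cannot be told apart. None of the 8 neighbours reached the difference of HEY2, as the plot by distance shows.

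**Figure D4:**
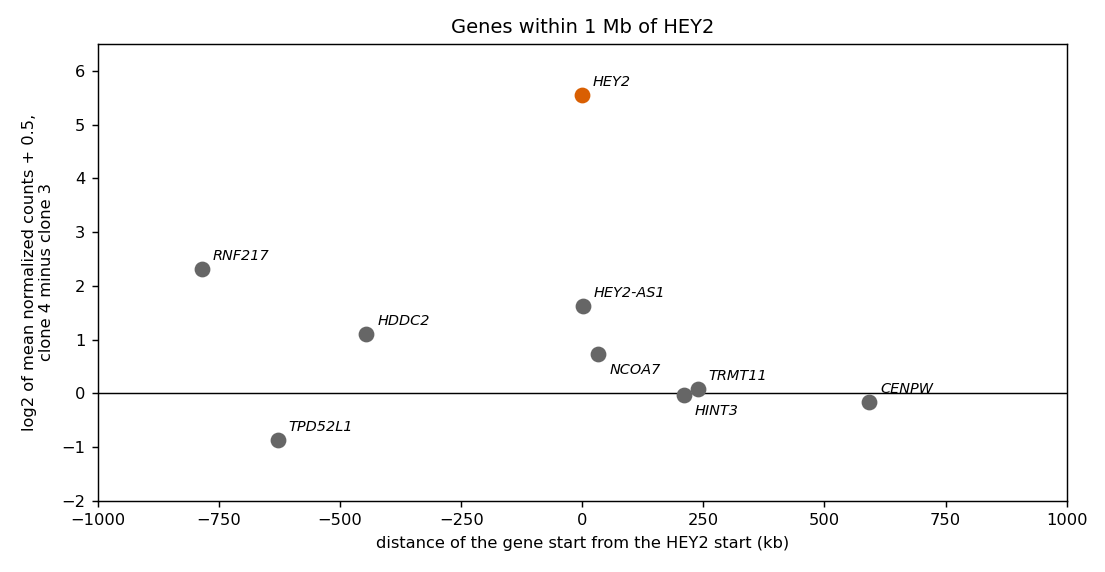
Log2 of mean normalized counts plus 0.5, clone 4 minus clone 3 (y axis), against distance of each gene start from the HEY2 start in kb (x axis, negative before HEY2), for HEY2 (orange) and its 8 neighbours with at least 10 counts in a library (grey). HEY2 stood at 5.55, and the neighbours lay between -0.87 and 2.32.

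Among 11563 genes that averaged 100 or more normalized counts, those whose log2 levels correlated best with HEY2 over the 5 libraries included a long noncoding RNA (ENSG00000184441, Pearson r = 0.99985), TCF12 (0.99741), TRIM36 (0.99723) and IGFBP5 (0.99629). With 5 libraries that share clones, 21 genes exceeded r = 0.99, and the value is a description. IGFBP5, an insulin-like growth factor binding protein, had 766 normalized counts in parental cells, 2011 and 2409 in clone 3, and 20790 and 24854 in clone 4. TCF12, a basic helix-loop-helix factor, had 3005, then 3143 and 3245, then 4078 and 4010. The high correlations went with different sizes of change, since the levels of TCF12 spanned 0.44 and those of IGFBP5 5.02 on the log2 scale.

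The second comparison asked whether GSK126 changed the pathway in EIR cells. None of the 10 members was called between the 2 treated and the 2 untreated libraries (0 with DESeq2 and 0 with edgeR), and 0 had an unadjusted p under 0.05. Over all genes, 0.00335% were called, which was 1 of 29847, and 117 had an unadjusted p under 0.05. Few genes passed either threshold, so the 0 among the members is not particular to them. With clone as a replicate block the count of members called was again 0. The share of all genes called in that blocked fit is not given here. In that fit the log2 difference, treated minus untreated, was 0.00243 for HES1 (95% interval -0.39 to 0.40), 0.21 for HEY2 (-0.65 to 1.07), 0.13 for NOTCH2 (-0.19 to 0.45), 0.22 for NOTCH1 (-0.18 to 0.63) and 0.03 for JAG1 (-0.30 to 0.36). For NOTCH3 it was 0.97 (-1.43 to 3.38) and for HEY1 0.39 (-0.90 to 1.68), so differences of several fold were not detectable at their depth.

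By clone, 7 of the 9 members that averaged 10 or more normalized counts were higher in the treated library of both clones and 0 were lower in both. Of 16248 genes at that level, 27.8% were higher in both and 21.3% lower in both. With the same pseudocount of 0.5, the log2 differences in clone 3 and clone 4 were 1.24 and 0.66 for NOTCH3, 0.26 and 0.56 for HEY1, 0.43 and 0.14 for HEY2, 0.33 and 0.14 for NOTCH1, and 0.13 and 0.15 for NOTCH2. They were near 0 for JAG1, at 0.05 and 0.03, and were 0.27 and 0.21 for JAG2, which had 8 and 9 raw counts in clone 4. HES1 (0.04 and -0.0076) and NRARP (0.28 and -0.32) differed in sign. With 1 library a group within a clone, these have no replicate check.

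The other genes of the pathway were read from a list of 56, of which 54 were in the table and DLK1 and HES5 were not analysed here. Against the parental library, 15 of 48 tested (31.2%) were called over the 4 EIR libraries, 3 higher and 12 lower, beside 25.5% of all genes. The median log2 fold change of the list was -0.24 and that of all genes tested 0.0025. The 25.5% belongs to the main fit, and shares of all genes for the other settings are not given here. With GC offsets 10 were called, 5 higher and 5 lower, and with total count scaling 14, 5 higher and 9 lower, so the lean to lower calls depends on the scaling. The count was 7 in edgeR, 7 with the libraries of each clone summed, 9 without treated clone 3, and 10 without untreated clone 3 or without untreated clone 4.

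Of the genes that modify or cut the receptor, 3 of 4 tested for glycosylation, 1 of 3 for cleavage (FURIN) and 1 of 6 for gamma-secretase (APH1A) were called. Over all genes tested 25.5% were called, and each of these groups holds few genes. LFNG, a glycosyltransferase that extends sugars on Notch and alters its response to ligands, rose from 53.4 normalized counts in parental cells to 235 and 265 in clone 3 and 245 and 263 in clone 4. The 4 EIR values lay close together and far above the parental one (log2 fold change 2.24, SE 0.31, DESeq2 adjusted p = 4.271e-11). Its relative RFNG fell, from 394 in the parental library to between 113 and 168 (-1.51, adjusted p = 0.0001). FURIN, the protease that cleaves the receptor on its way to the surface, had 1453 in parental cells, 401 and 436 in clone 3, and 350 and 472 in clone 4 (-1.81, SE 0.25, adjusted p = 3.837e-11). POFUT1, which adds fucose to the receptor, was higher (0.52, adjusted p = 0.0019), and APH1A was lower (-0.64, adjusted p = 0.0071). LFNG, RFNG and FURIN were called in all 11 settings run, POFUT1 in 6 and APH1A in 7. POFUT1 and APH1A were both lost with clone sums and without untreated clone 3 or untreated clone 4, POFUT1 also in edgeR and without treated clone 3, and APH1A also with GC offsets.

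NEURL1 and NEURL1B, ubiquitin ligases that act on ligands, were lower. NEURL1 had 208 normalized counts in parental cells, 0.926 and 0 in clone 3, and 8.14 and 12.7 in clone 4, all far below the parental value (log2 fold change -5.27, SE 1.49, DESeq2 adjusted p = 0.0032), a call made in 10 of 11 settings and lost without untreated clone 4. NEURL1B had 770 in the parental library and 153 to 378 in the EIR libraries (-1.70, adjusted p = 0.0067), and was not called in edgeR or with GC offsets. MIB2, another ubiquitin ligase of the pathway, was lower too (-0.92, adjusted p = 0.0162), a call made in 6 of 11 settings and lost in edgeR, with GC offsets, with clone sums and without untreated or treated clone 3. DNER, a non-canonical ligand, had 2385 in parental cells, 645 and 716 in clone 3, and 985 and 1325 in clone 4 (-1.38, SE 0.43, adjusted p = 0.0084), a call made in 10 of 11 settings and not in edgeR. Of the canonical DLL ligands only DLL3 could be tested, with 77.6 normalized counts in the parental library and 61.4 to 86.5 in the EIR libraries (-0.09, adjusted p = 0.9132).

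In the nucleus, MAML2, a coactivator of the Notch complex, was higher (0.88, DESeq2 adjusted p = 0.0035) and MAML1 lower (-0.63, adjusted p = 0.0236), while RBPJ at 0.46 (adjusted p = 0.0586) was not called. MAML2 was called in 9 of 11 settings, not in edgeR or with clone sums. MAML1 was called in 4, and lost in edgeR, with total count scaling, GC offsets and clone sums, and without untreated clone 3, untreated clone 4 or treated clone 3. HES6, which is known to counteract HES1, went from 427 normalized counts in the parental library to between 117 and 156 (-1.64, SE 0.32, adjusted p = 5.820e-06), called in all 11 settings. Of the 9 corepressor genes tested, 3 were called (33.3%, beside 25.5% of all genes), all lower (TLE2, TLE3 and CTBP2), and none of the 3 was called with GC offsets or clone sums. TLE3 was also lost with total count scaling and without treated clone 3, and CTBP2 in edgeR and without untreated clone 3, untreated clone 4 or treated clone 3. TLE2 is a Groucho-family corepressor that HES proteins recruit. It had 471 in parental cells, 154 and 115 in clone 3, and 24.4 and 25.4 in clone 4 (-2.57, SE 1.01, adjusted p = 0.0459). That call was made in 4 of 11 settings, and was also lost in edgeR, with total count scaling, with the low count filter and without either treated library. The plot of the list by role shows calls in both directions for the glycosylation and nuclear genes.

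**Figure D5:**
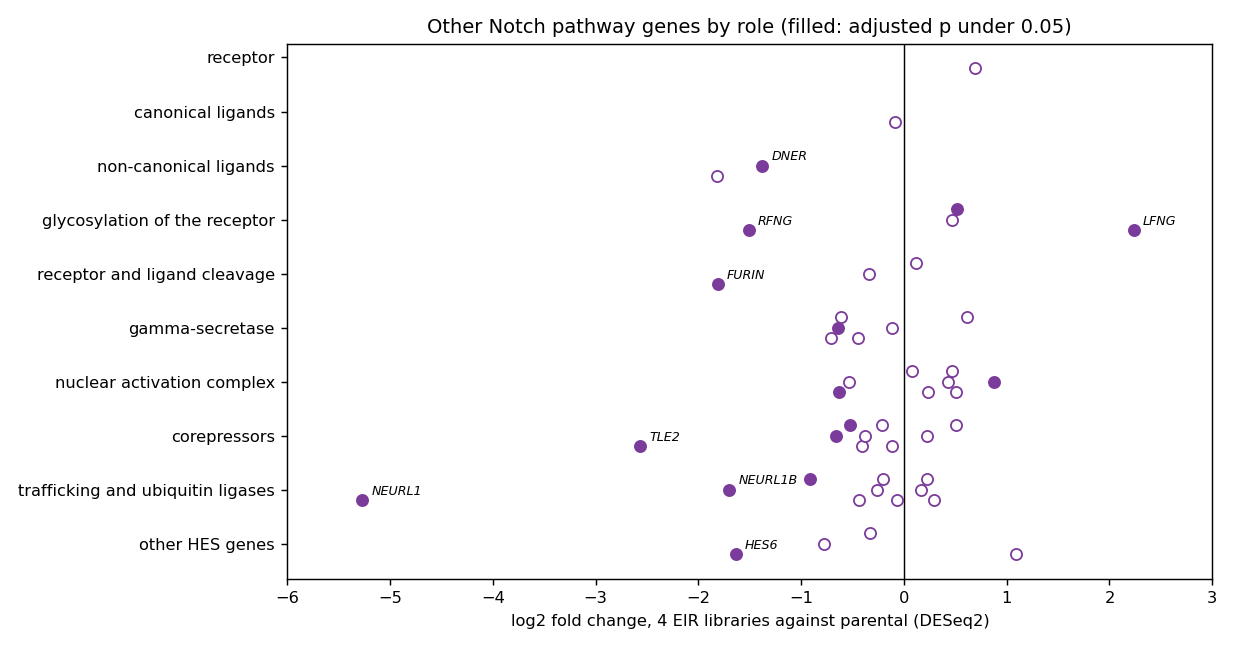
DESeq2 log2 fold change of the 4 EIR libraries against the parental library (x axis) for the 48 tested genes of the wider Notch list, 1 point per gene, grouped by role (y axis), filled where adjusted p was under 0.05. The 15 called genes include 3 higher (LFNG, MAML2 and POFUT1) and 12 lower, from NEURL1 at -5.27 to CTBP2 at -0.53.

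Between the clones, 6 of 47 genes of the list tested were called (12.8%), where 9.83% of all genes were, and the list's median log2 difference was 0.04 beside -0.0034 over all genes. Each side is a single clone, and the spread comes from its untreated and treated libraries. The p-values therefore do not measure variation from clone to clone. EGFL7, a secreted ligand-like protein known from endothelium, had 87.0 and 92.9 normalized counts in clone 3 and 3.05 and 13.8 in clone 4 (-3.64, SE 0.79, DESeq2 adjusted p = 0.0001). TLE2 was lower in clone 4 as well (-2.42, adjusted p = 0.0003). KAT2B (0.99, adjusted p = 0.0003) and CREBBP (0.83, adjusted p = 0.0022), which both encode histone acetyltransferases, were higher in clone 4, as was DNER (0.74, adjusted p = 0.0095). CREBBP was highest in treated clone 4, at 2657 normalized counts against 1499 in untreated clone 4. The share of all genes called is given here for the main fit only, not for the forms that follow. Without the treatment term the 4 libraries gave 8 calls, and in that form 2 were called without untreated clone 3, 11 without untreated clone 4, 4 without treated clone 3 and 4 without treated clone 4. EGFL7 was called in all 11 settings, TLE2 and KAT2B in 10 (not without untreated clone 3), and CREBBP and DNER in 8 (not without untreated clone 3, treated clone 3 or treated clone 4).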

How the data were processed

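RNA-seq was performed on total RNA of 5 TOV21G cultures, 1 library each, with groups and clone numbers taken from the labels. The authors prepared stranded total RNA libraries, aligned paired-end reads to hg19 with bowtie2 and estimated counts per Ensembl gene with RSEM (version 1.2.3 in the submitters' processing notes). The deposited values are these expected counts, already whole (0 values were not), and were used as they stood. The release of the annotation and the use of strand in counting are not given in the sources used here. Gene names and coordinates came from GENCODE release 44 mapped to GRCh37, which corresponds to hg19, and 29203 of 30476 identifiers (95.8%) had a symbol.

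DESeq2 1.42.0 in R 4.3.3, the test named in the methods, was fitted across all genes (two-sided Wald test, Benjamini-Hochberg adjustment, threshold 0.05). EIR against parental and treated against untreated were fits of their own, the clones were compared with parental cells in a fit of 3 groups, and clone 4 was compared with clone 3 with treatment as a covariate. Alternatives were edgeR 4.0.16 (quasi-likelihood test), TMM factors, total count scaling, a filter of at least 10 counts in at least 2 libraries, GC offsets, clone sums, a pseudocount of 5 in place of 0.5, and leaving out each EIR library. The parental library has no replicate and was never left out. Libraries of the same clone carry the same clone number, and over 11377 genes their deviations from the treated and untreated means correlated (r = 0.864), so clone was used as a block in an alternative fit. The scripts were tested on simulated data. The 10 members, the wider list and the rules for named genes were chosen with earlier results of these data known. All 10 members were named. Of the wider list, up to 10 called genes with the largest absolute log2 fold change were named per comparison. The genes POFUT1, APH1A, MAML1, TLE3, CTBP2, RBPJ and DLL3 were named beyond that rule, to describe their roles, after their values were seen. The intervals of HEY2 are exact conditional 95% intervals of a ratio of counts. Results for some genes that these rules name are not reported here.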

Additional observations from a re-analysis of the deposited data

Results flagged for a closer look

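JAG1 moved in opposite directions in the EIR clones. The mean log2 ratio of normalized counts to the parental library was 0.345 in clone 3 and -0.385 in clone 4, and both libraries of each clone lay on the same side. Neither clone passed the threshold in DESeq2, and the difference between the clones was not tested, since the genes were chosen with a difference between these clones known.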

How the results depend on the processing

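With 1 parental library and 2 libraries of each clone, counts of members called moved with single libraries, while the calls of NOTCH3 and HES1 were made in all settings run. Over the 4 EIR libraries, 4 members were called with DESeq2, 2 with edgeR, 2 with GC offsets, 2 with clone sums, and 2 to 3 when 1 EIR library was left out. Clone 3 gave 4 members (1 higher), 5 with total count scaling and 4 with GC offsets (2 higher in each), and 2 to 4 with 1 library left out. Clone 4 gave 5 members, 2 with GC offsets, and 2 to 3 with 1 library left out. The wider list gave 15 calls for EIR against parental (3 higher, 12 lower), 10 with GC offsets (5 higher, 5 lower), 14 with total count scaling (5 higher, 9 lower), 7 with edgeR, 7 with clone sums, and 9 to 16 with 1 library left out. Between clones it gave 6 with the treatment term and 8 without it. In the form without it the count was 2 to 11 with 1 library left out, an alternative chosen after seeing the data, since 3 libraries leave no residual degree of freedom with the term. Clone sums and left-out libraries have fewer libraries by construction, and otherwise the cause was not tested. Shares over all genes are given here for the main fits only. Whether the other counts followed the calls over all genes cannot be told from them. Some uncalled log2 differences changed sign. JAG1 for EIR against parental (0.03) ran from -0.12 to 0.15 with 1 library left out, and JAG2 in clone 3 (-0.22) was 0.22 with GC offsets. Treated against untreated, leaving out 1 library unbalances the clones, and the range was -0.40 to 0.45 for JAG1, -1.22 to 1.68 for JAG2, -0.20 to 0.18 for HES1, -0.52 to 1.40 for HEY1, -4.38 to 4.96 for HEY2 and -0.55 to 0.45 for NRARP. With clone as a replicate block NRARP was at -0.021 in DESeq2 and -0.0047 in edgeR, against 0.04 without it. In either, 0 members were called, so the block changed no call of a member.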
